A study of Mus musculus with 2 samples.

Results

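The Hox genes were examined in RNA-seq libraries of cultured primary FAPs (fibro-adipogenic progenitors), mouse mesenchymal cells that lie between the fibres of skeletal muscle and can become adipocytes. Members were all genes whose symbol in the expression files was Hox followed by a cluster letter (a, b, c or d) and a number, with antisense and host transcripts left out. The rule gave 39 of the 44291 genes. It used names only and no measured value.

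There were 2 libraries, 1 from FAPs treated with platelet-rich plasma (PRP) and 1 from FAPs that received vehicle (control). The labels gave both as wild type and under adipogenic differentiation, in DMEM with 20% FBS to which insulin (10 μg/ml), IBMX (0.5 mM) and dexamethasone (0.25 μM) had been added for induction. The FAPs had been sorted by flow cytometry from muscles of both hind limbs of C57BL/6 mice with antibodies to CD140a, Sca-1, CD31 and CD45. The study's results section gives the treatment before sequencing as exosomes from the PRP of young human donors. The legend of the supplementary figure cited there names overexpression of the gene TGFBR3 instead. Whether a library pooled several mice was not stated. With 1 library per treatment no replicate existed, each difference given here is one between a pair of libraries, and the treatment could not be tested.

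Hox genes encode homeodomain transcription factors that give cells their address along the body axis. In mammals they sit in 4 clusters, and within a cluster the genes are numbered from 1 to 13 by their paralogue group. Genes with low numbers act from the hindbrain backwards, and those with high numbers act in the lower trunk, the limbs and the tail. Connective tissue cells of adult animals are known to keep much of the Hox code of the place they came from. In the limb bud, Hoxa and Hoxd genes of groups 9 to 13 pattern the skeleton from hip to toes, and Hoxc10 is transcribed chiefly in the hind limb.

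The expression files gave 1 value per gene and library in FPKM (fragments per kilobase of transcript, scaled to the reads of the library). This is a level per length, so that different genes can be set side by side. The lengths used here were those of all annotated exons of a gene together. The order of different genes therefore also depends on the annotated length, which the intervals do not cover. Values from few reads are imprecise, so the reads behind each value were recovered from the steps between FPKM values. The library total that turned most values into whole numbers was 40120843 reads for the PRP library and 34139741 for the control. For 38 of the 39 Hox genes the values came out as whole reads. The exception was Hoxa13, whose reads are taken as the smallest whole numbers in the ratio of its values. Each ratio of PRP FPKM to control FPKM is given with an exact 95% binomial (Clopper-Pearson) interval over fragments. These intervals and the limits for genes without reads cover counting error only and say nothing of the spread between cultures or mice.

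The cells carried the transcripts that FAPs were sorted for. Pdgfra, which encodes CD140a, was at 19.8 FPKM with PRP and 27.95 FPKM without. Pairs of values below name the PRP library first and the control library second, as for Ly6a, which encodes Sca-1, at 59.9 and 66.4 FPKM. The highest FAP markers were Thy1 at 156 and 212 FPKM, Col1a1 at 119 and 219 FPKM and Pdgfrb at 68.5 and 88.7 FPKM. Of the 9 FAP markers, 8 averaged 1 FPKM or more, and all 8 were lower in the PRP library. The summed level of the 9 was 453 FPKM with PRP and 648 FPKM without. Defining markers of other cells were at or near 0. Ptprc, which encodes CD45, was at 0.0109 and 0.0192 FPKM, Pecam1, which encodes CD31, at 0.188 and 0.0470 FPKM, and Pax7, which marks muscle stem cells, had no reads in either library. Of the 6 endothelial markers, 2 averaged 1 FPKM or more, and both were higher in the PRP library, Kdr with 4.23 and 1.499 FPKM and Tek with 4.73 and 3.56 FPKM. Of the 6 haematopoietic markers only Cd68, a lysosomal gene of macrophages, averaged 1 FPKM or more, with 4.56 and 2.31 FPKM. Whether these shifts in marker levels had a part in the Hox differences was not tested. In bulk RNA, fewer cells of a type and less RNA per cell cannot be told apart.

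Of the 39 Hox genes, 17 averaged 1 FPKM or more over both libraries, and they were unevenly spread over the clusters. The Hoxc cluster (chr15:102921103-103036852 on mm10, coordinates from GENCODE M21) held 8 of them among its 9 genes. The Hoxa cluster, on chromosome 6, held 5 among 11 and the Hoxb cluster (chr11:96194316-96368256) held 4 among 10. The Hoxd cluster (chr2:74668310-74765142) held none among 9. By level, Hoxc transcripts made up 67.6% of the summed Hox FPKM with PRP and 73.8% without. The Hoxd share was 2.23% and 1.92%. Both libraries were therefore dominated by the same cluster, with Hoxb and Hoxa between the extremes.

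**Figure D1:**
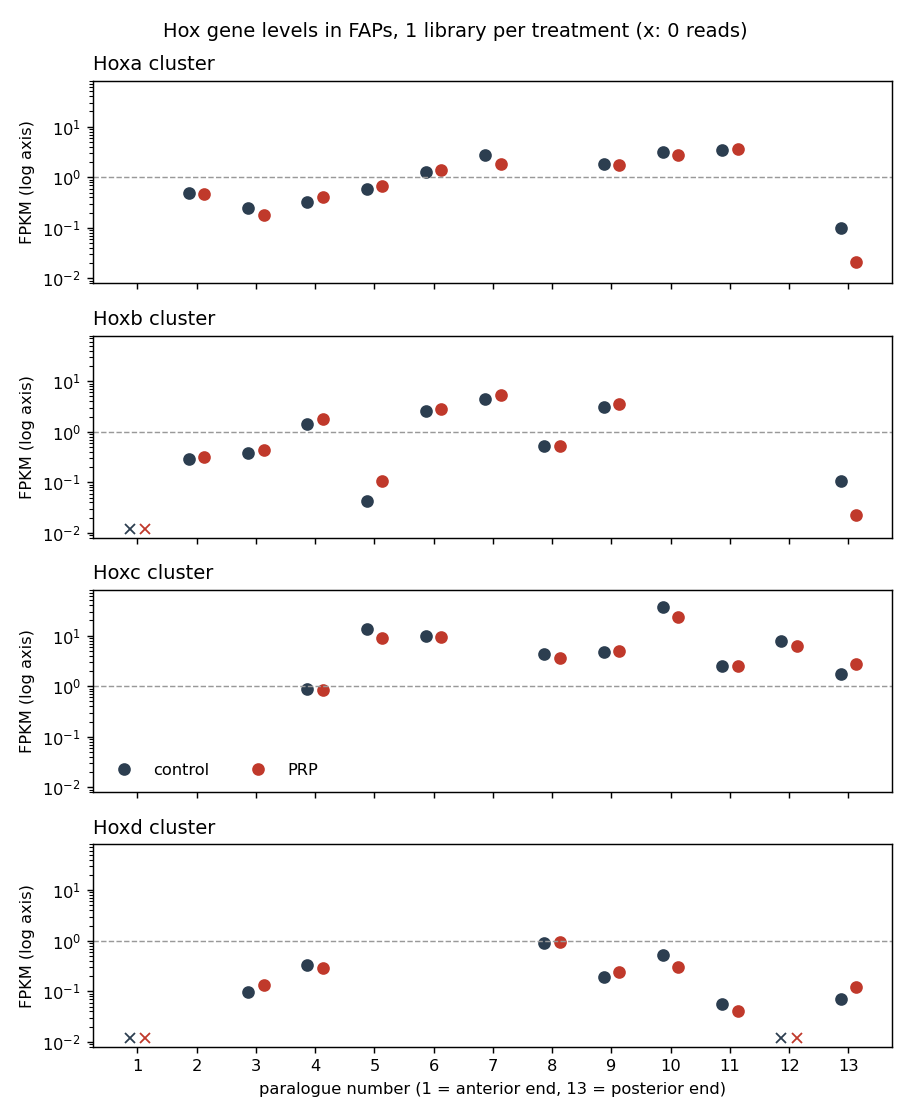
FPKM of 38 of the 39 Hox genes on a log axis against paralogue number, 1 panel per cluster, with 1 point per library (dark, control; red, PRP), crosses for genes with no reads and a dashed line at 1 FPKM. All Hoxc genes but Hoxc4 lie above the line, all Hoxd genes lie below it, and Hoxc10 is the highest point in both libraries.

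Along the body axis, none of the 8 genes of groups 1 to 3 averaged 1 FPKM or more. Of the 15 genes of groups 4 to 8, 8 did, and of the 16 genes of groups 9 to 13, 9 did. Groups 1 to 3 made up 1.91% of the summed Hox FPKM with PRP and 1.47% without. Groups 4 to 8 made up 41.7% and 38.5%, and groups 9 to 13 56.4% and 60.0%. Group 10 held the largest share of any single group, 28.9% with PRP and 36.8% without, nearly all of it from Hoxc10.

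Hoxc10 (ENSMUSG00000022484, chr15:102966796-102971893), a hind limb gene of the cluster, was the most abundant Hox gene in both libraries, at 23.9 FPKM with PRP and 37.4 FPKM without, from 1833 and 2437 reads. In the control library it stood 2.82 times (interval 2.57 to 3.10) above the next gene, Hoxc5, and in the PRP library 2.51 times (interval 2.24 to 2.81) above the next gene, Hoxc6. The PRP level was 0.640 (95% counting interval 0.587 to 0.698) of the control level, the lowest ratio among the 17 genes.

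Hoxc5 (ENSMUSG00000022485, chr15:102967443-103017429), a gene of the cervical and upper thoracic code, was at 8.83 FPKM with PRP and 13.3 FPKM without. Its ratio of 0.666 (95% counting interval 0.594 to 0.746) was close to that of Hoxc10. In GENCODE M21 the Hoxc5 gene includes a noncoding isoform whose first exon lies inside an exon of Hoxc10 on the same strand. This stretch is 8.70% of the exon length of Hoxc10 and 5.37% of that of Hoxc5, so reads there cannot be assigned to either gene with certainty.

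The thoracic Hoxc genes had ratios nearer to 1. Hoxc6 (chr15:102998257-103011881), a thoracic gene that is also on in the limb buds, was at 9.55 FPKM with PRP and 9.71 FPKM without, a ratio of 0.984 (95% counting interval 0.859 to 1.13). Hoxc8 (chr15:102990607-102994111) was at 3.59 and 4.30 FPKM in the same order and Hoxc9 (chr15:102976439-102985099) at 4.97 and 4.70 FPKM, with ratios of 0.835 (0.685 to 1.02) and 1.06 (0.873 to 1.28). These thoracic genes thus had intervals that included equal levels.

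At the posterior end of the cluster, Hoxc11 (chr15:102954427-102957708) was at 2.47 FPKM with PRP and 2.57 FPKM without, a ratio of 0.961 (95% counting interval 0.715 to 1.29). Hoxc12 (chr15:102936757-102938609) was at 6.33 and 7.95 FPKM, a ratio of 0.796 (95% counting interval 0.623 to 1.02). Hoxc13 (chr15:102921103-102928814), which is known for its part in hair and nail formation, went the other way, at 2.72 FPKM with PRP and 1.79 FPKM without from 269 and 150 reads. Its ratio was 1.53 (95% counting interval 1.14 to 2.05), and it was the only one of the 17 Hox genes that was higher in the PRP library with an interval that excluded equal levels. Hoxc genes from 10 to 13, neighbours on the chromosome, therefore had ratios on both sides of 1.

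In the Hoxa cluster the 5 genes that averaged 1 FPKM or more were Hoxa6, Hoxa7, Hoxa9, Hoxa10 and Hoxa11. Hoxa11 (chr6:52242106-52245810), which patterns the forearm and shank, was at 3.57 FPKM with PRP and 3.53 FPKM without, a ratio of 1.01 (95% counting interval 0.801 to 1.28). Its antisense partner Hoxa11os covers 35.0% of its exon length, and the strand setting of the counting was not stated, so reads of the pair cannot be told apart there. Hoxa10 (chr6:52231197-52240854), known for its part in the thigh and the uterus, was at 2.77 and 3.23 FPKM, a ratio of 0.856 (95% counting interval 0.692 to 1.06). Hoxa9 (chr6:52223100-52231089) was at 1.75 and 1.81 FPKM, a ratio of 0.964 (95% counting interval 0.782 to 1.19). The intervals of these 3 posterior genes included equal levels.

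Hoxa7 (ENSMUSG00000038236, chr6:52214491-52221854), a thoracic gene, was at 1.86 FPKM with PRP and 2.73 FPKM without, from 215 and 268 reads. Its ratio of 0.683 (95% counting interval 0.525 to 0.886) was the only one in the cluster whose interval excluded equal levels. The antisense transcript Hoxaas3 covers 20.4% of its exon length. Hoxa6 (chr6:52206288-52208722) was at 1.37 and 1.27 FPKM in the same order, from 48 and 38 reads, and its interval was the widest of the 17, 0.564 to 2.08.

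In the Hoxb cluster all 4 genes that averaged 1 FPKM or more had their higher value in the PRP library, but each interval included equal levels. Hoxb7 (chr11:96286623-96290162) was at 5.38 FPKM with PRP and 4.36 FPKM without, a ratio of 1.23 (95% counting interval 0.966 to 1.58). Hoxb9 (chr11:96271457-96276595) was at 3.53 and 3.05 FPKM, a ratio of 1.16 (95% counting interval 0.922 to 1.46). Hoxb6 (chr11:96292476-96301569) was at 2.82 and 2.52 FPKM, a ratio of 1.12 (95% counting interval 0.835 to 1.501). Hoxb4 (chr11:96318267-96321638), best known from blood stem cells, was at 1.77 and 1.39 FPKM, a ratio of 1.27 (95% counting interval 0.908 to 1.79). Summed over the cluster, Hoxb transcripts came to 14.9 FPKM with PRP and 12.7 FPKM without, against 13.3 and 14.5 FPKM for Hoxa and 63.2 and 82.5 FPKM for Hoxc.

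**Figure D2:**
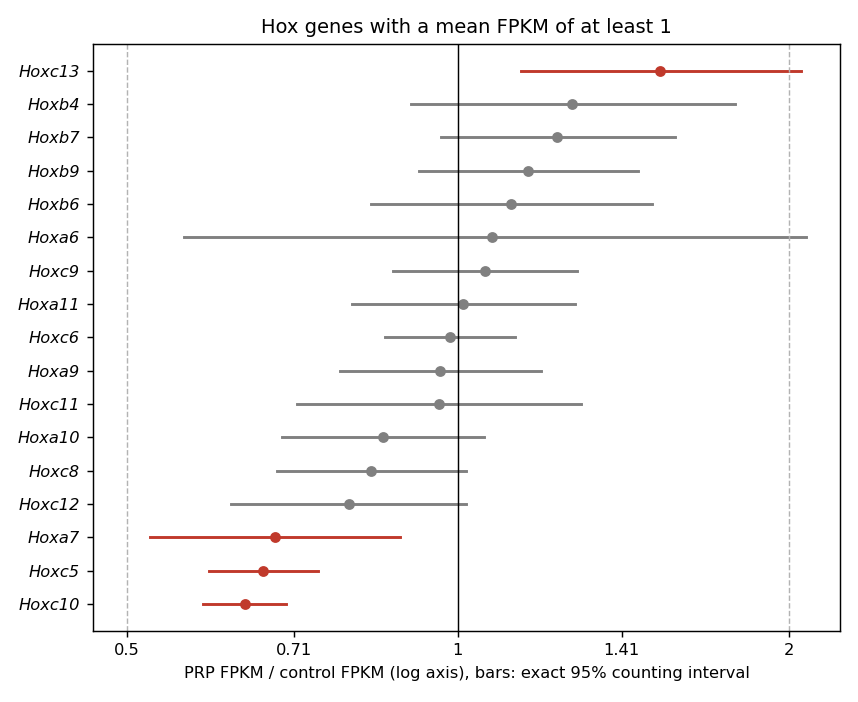
PRP FPKM over control FPKM on a log axis for the 17 Hox genes that averaged 1 FPKM or more; points are the ratios, bars the exact 95% counting intervals, red where the interval excludes 1, and dashed lines mark 2-fold. Hoxc10, Hoxc5 and Hoxa7 lie to the left of 1 and Hoxc13 to the right, and the other 13 bars cross 1.

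The remaining 22 Hox genes had a mean FPKM under 1. Nearest to that level were Hoxd8, at 0.963 and 0.886 FPKM in the PRP and control libraries, and Hoxc4, at 0.844 and 0.878 FPKM, while Hoxa6 was the lowest gene above it. Hoxa5 was at 0.677 and 0.577 FPKM, Hoxb8 at 0.520 and 0.511 FPKM and Hoxa2 at 0.477 and 0.479 FPKM. Of the 22, 14 averaged 0.1 FPKM or more, and all 22 had intervals that included equal levels or no reads. Further genes between Hoxa2 and 0.1 FPKM included Hoxa3 and Hoxa4, Hoxb2 and Hoxb3, and Hoxd3, Hoxd4, Hoxd9 and Hoxd10. For Hoxb3, Hoxd3 and Hoxd4 at least 50% of the exon length is shared with other genes, so their reads are uncertain.

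The other 8 genes were under 0.1 FPKM on average. Hoxa13 and Hoxb13, at 0.0208 and 0.0976 FPKM and 0.0226 and 0.106 FPKM, and Hoxd13, at 0.120 and 0.0708 FPKM, belong to the group that patterns hands and feet and the tail end of the trunk. Hoxb5 was at 0.107 and 0.0421 FPKM and Hoxd11 at 0.0414 and 0.0556 FPKM. Hoxb1, a hindbrain gene, and Hoxd1 and Hoxd12 had no reads in either library. A count of 0 allows up to 3 fragments, which would be 0.0644 FPKM with PRP and 0.0757 FPKM without for Hoxb1, 0.0803 and 0.0944 FPKM for Hoxd1, and 0.0590 and 0.0694 FPKM for Hoxd12.

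The order of the 17 levels was much alike in both libraries, but most places in it were not resolved. Of the 16 pairs of neighbours in the order of the control library, 5 had intervals of their ratio that excluded equal levels, and these were the 4 steps from Hoxc10 down through Hoxc5, Hoxc6 and Hoxc12 to Hoxc9 and the step from Hoxb6 to Hoxa9. In the PRP library 3 of 16 did, the steps from Hoxc10 to Hoxc6, from Hoxc5 to Hoxc12 and from Hoxc9 to Hoxc8. Hoxc6 and Hoxc5 had exchanged places there, with a ratio of 1.08 (interval 0.954 to 1.23). Over the 39 genes the levels of both libraries had a Spearman rho of 0.988, a description across genes, which are not independent and share the same libraries.

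To ask whether the Hox code differed between the libraries, fold changes were taken on the scale of log2(FPKM + 1), PRP minus control. No Hox gene differed by 2-fold on this scale, where 2.83% of the 13401 genes that averaged 1 FPKM or more did. The extremes were Hoxc10 at -0.62 and Hoxc13 at 0.42. At 1.5-fold on this scale, Hoxc10 was the only Hox gene, 1 of 17, against 10.7% of all genes tested. By the plain ratios, Hoxc5 at 0.666 and Hoxc13 at 1.53 also passed 1.5-fold, and the share of all genes by plain ratio was not taken. The median difference of the 17 genes was -0.02, with 8 higher and 9 lower, and the median of all genes tested was 0.01. The pseudocount of 1 shrinks all differences, most of all those of genes near 1 FPKM, and the plain ratios carry none.

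By counting intervals, 4 of the 17 Hox genes excluded equal levels, 3 lower in the PRP library (Hoxc10, Hoxc5 and Hoxa7) and 1 higher (Hoxc13). Such intervals excluded equal levels for 52.2% of the 12369 genes with whole reads and a mean of 1 FPKM or more, 26.1% higher and 26.1% lower in the PRP library. The share among the Hox genes, 23.5%, was below that of all genes tested. Whether an interval excludes equal levels also depends on the number of reads, and most of the Hox genes had low levels. Read numbers were not matched, so these shares, here and for the lists below, do not compare sizes of change. When the libraries were scaled without mitochondrial genes and the 50 most abundant genes, the intervals of Hoxc8 (0.669 to 0.994) and Hoxc12 (0.609 to 0.995) also excluded equal levels, on the lower side.

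**Figure D3:**
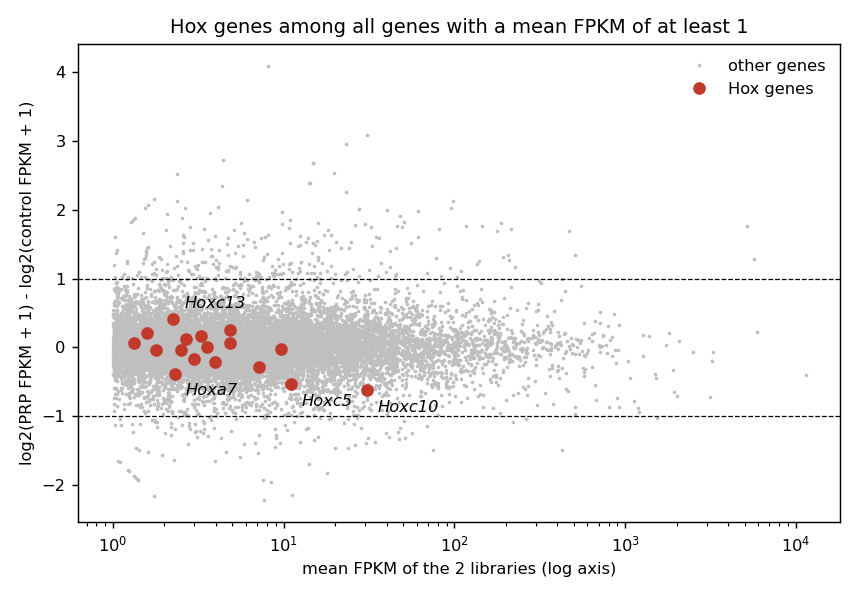
Difference between the libraries, log2(PRP FPKM + 1) minus log2(control FPKM + 1), against the mean FPKM on a log axis for the 13401 genes that averaged 1 FPKM or more (grey) and the 17 Hox genes among them (red); dashed lines mark 2-fold. All Hox genes lie between the dashed lines, with Hoxc10 lowest at -0.62 and Hoxc13 highest at 0.42.

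The summed FPKM of the 39 Hox genes was 93.6 with PRP and 112 without, a ratio of 0.837 (counting interval 0.8003 to 0.875). Most of this gap was Hoxc10, since the ratio without it was 0.936. As a share of all FPKM, Hox transcripts were 0.0273% with PRP and 0.0330% without.

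The clusters also hold microRNA genes, and their mature sequences are shown because the microRNAs of 1 family have matches in several of the Hox transcripts described above. They are given from RefSeq (GRCm38.p6), 5′ to 3′, with the seed (bases 2 to 8) in capitals. miR-196a-5p is encoded beside Hoxb9 (chr11:96265187-96265208) and between Hoxc10 and Hoxc9 (chr15:102973365-102973386), miR-196b-5p within Hoxa9 (chr6:52230129-52230150), miR-10a-5p beside Hoxb4 (chr11:96317186-96317208), miR-10b-5p within Hoxd4 (chr2:74726074-74726096) and miR-615-3p in an intron of Hoxc5 (chr15:103014969-103014990). Human let-7f-5p and miR-16-5p were named by the study as cargo of the exosomes, and the mouse sequences are given here.
miR-196a-5p: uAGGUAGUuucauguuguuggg
miR-196b-5p: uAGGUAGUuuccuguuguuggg
miR-10a-5p: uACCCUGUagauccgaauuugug
miR-10b-5p: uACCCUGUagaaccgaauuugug
miR-615-3p: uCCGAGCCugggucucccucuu
let-7f-5p: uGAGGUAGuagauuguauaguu
miR-16-5p: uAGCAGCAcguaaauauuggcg

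Both miR-196 forms share the seed AGGUAGU, and both miR-10 forms share ACCCUGU. The seed of let-7f-5p, GAGGUAG, overlaps that of miR-196, so that their matches ACTACCT (miR-196) and CTACCTC (let-7f-5p) have most letters in common. The libraries were made from messenger RNA and did not measure mature microRNAs.

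For every protein-coding gene of GENCODE M21, its longest 3′UTR was searched on the transcript strand for exact matches to these seeds. ACTACCT was present in 9 of 39 Hox genes, against 6.27% of 20083 genes with a 3′UTR. CTACCTC was present in 6 Hox genes against 9.35%, and TGCTGCT, the match to miR-16-5p, in 7 against 20.9%. ACAGGGT (miR-10) was present in 4 against 12.9% and GGCTCGG (miR-615-3p) in 1 against 2.40%. In 2 Hox genes, among them Hoxb1, a miR-196 match and a let-7f-5p match overlapped. These are matches of letters and not measured sites.

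The 9 Hox genes with a miR-196 match included Hoxa4, Hoxa5, Hoxa7, Hoxa9, Hoxb1, Hoxb6, Hoxb7 and Hoxc8, with 4 matches in Hoxa7 and 2 in Hoxc8. Representative windows are shown in DNA letters with the seed match in capitals, and for Hoxb8, which holds no exact seed match, the stretch that differs from the full complement of miR-196a-5p at 1 of 22 bases, with that base in capitals.
Hoxa7, chr6:52215401-52215422, minus strand: aggcacagccaaaatACTACCT
Hoxa7, chr6:52215211-52215232, minus strand: tactactagccctaaACTACCT
Hoxc8, chr15:102992975-102992996, plus strand: acactcacaactctaACTACCT
Hoxb7, chr11:96289783-96289804, plus strand: actgtaaaaaaatatACTACCT
Hoxb8, chr11:96284888-96284909, plus strand: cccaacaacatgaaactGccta

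The 5 genes of this set that averaged 1 FPKM or more had ratios on both sides of 1, which were 0.683 for Hoxa7, 0.835 for Hoxc8, 0.964 for Hoxa9, 1.12 for Hoxb6 and 1.23 for Hoxb7. With a let-7f-5p match there were 3 such genes, Hoxa11 at 1.01, Hoxc11 at 0.961 and Hoxb4 at 1.27. With a miR-16-5p match there were 5, namely Hoxc5 at 0.666, Hoxa10 at 0.856, Hoxc11, Hoxb9 at 1.16 and Hoxb4. These counts are out of 17 Hox genes. Among the 10287 genes with a 3′UTR that averaged 1 FPKM or more, the shares were 6.43% for miR-196, 9.85% for let-7f-5p and 24.6% for miR-16-5p. Whether any match had a part in a ratio was not tested. Hoxc10 and Hoxc13 held none of the 5 seed matches.

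Other transcripts of the clusters were read beside the Hox genes. Of the 21 noncoding transcripts listed, 16 were in the files under the listed name and 4 averaged 1 FPKM or more, all 4 higher in the PRP library, with a median difference of 0.45 on the log2(FPKM + 1) scale against 0.01 for all genes. Hotair, a long noncoding RNA transcribed between Hoxc11 and Hoxc12 on the opposite strand, was at 5.57 FPKM with PRP and 2.93 FPKM without, a ratio of 1.90 (95% counting interval 1.496 to 2.43) with reads taken as the smallest whole numbers in that ratio. Hotairm1, a noncoding RNA of the Hoxa cluster, was at 2.29 and 1.40 FPKM, a ratio of 1.63 (95% counting interval 0.981 to 2.78), and Hoxa11os at 3.10 and 2.98 FPKM, a ratio of 1.04 (95% counting interval 0.836 to 1.29). The short Mir196a-1 gene had 19 and 11 reads and an interval of 0.464 to 5.22. Among these 4 only the Hotair interval excluded equal levels, on the higher side, where 26.1% of all genes with whole reads did so. Of all 13401 genes tested, 6815 were higher in the PRP library.

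Of 13 protein-coding genes next to the clusters, 11 were in the files and 7 averaged 1 FPKM or more, with 4 higher and 3 lower and a median difference of 0.02. Calcoco1, at the Hoxc13 side of the Hoxc cluster, was at 16.5 FPKM with PRP and 15.04 FPKM without, and Cbx5, a heterochromatin protein gene near the cluster's other end, at 12.3 and 17.1 FPKM, a ratio of 0.718 (95% counting interval 0.679 to 0.760). Skap2, next to the Hoxa cluster, was at 7.32 and 7.87 FPKM. The homeobox genes Evx1 and Evx2, which lie beyond the group 13 ends of Hoxa and Hoxd, were at 0 and 0 FPKM and 0.0119 and 0 FPKM.

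Hox proteins bind DNA with the TALE homeodomain cofactors Pbx, Meis and Pknox. Of 9 cofactor genes, 7 averaged 1 FPKM or more, of which 6 were lower and 1 higher in the PRP library, with a median difference of -0.22 against 0.01 for all genes. The intervals of 5 of these 7 excluded equal levels, all 5 lower, where 52.2% of all genes did and 26.1% of all genes were lower. Under 1 FPKM on average, Meis1 (1.01 and 0.762 FPKM) and Pknox1 (0.971 and 0.706 FPKM), chosen after their values were seen, were higher in the PRP library by interval, with ratios of 1.33 (1.07 to 1.66) and 1.38 (1.04 to 1.83). Meis3 was at 4.21 FPKM with PRP and 4.45 FPKM without, a ratio of 0.946 (95% counting interval 0.792 to 1.13), and Pbx2 at 3.31 and 4.08 FPKM, a ratio of 0.811 (95% counting interval 0.677 to 0.971). Pknox2 had the lowest ratio of the 7, 0.663 (95% counting interval 0.564 to 0.780), from 1.31 and 1.98 FPKM. None of the 7 reached 2-fold. The FAP markers were lower as a list too, with a median difference of -0.33, and whether that shift had a part in the cofactor values was not tested.

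Limb factors other than Hox genes were read as a second measure of position. Pitx1, which sets hind limb identity, was at 1.28 FPKM with PRP and 1.55 FPKM without, from 136 and 141 reads, a ratio of 0.821 (95% counting interval 0.579 to 1.16). Tbx4, the hind limb T-box gene, was at 0.440 and 0.784 FPKM from 60 and 91 reads, a ratio of 0.561 (95% counting interval 0.342 to 0.909). Tbx5, its fore limb counterpart, was at 0.427 and 0.890 FPKM from 80 and 142 reads, a ratio of 0.479 (95% counting interval 0.317 to 0.716). The levels of Tbx4 and Tbx5 were close to each other within each library and under 1 FPKM, and the fore limb gene was not absent from cells sorted from hind limbs. Both were lower in the PRP library by counting interval.

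The highest limb factor genes were Emx2, known from the shoulder girdle, the kidney and the cerebral cortex, Tbx15, a T-box gene of trunk and limb mesenchyme, and Shox2, a gene of the proximal limb. Emx2 was at 44.1 FPKM with PRP and 29.1 FPKM without, a ratio of 1.52 (95% counting interval 1.42 to 1.62). Tbx15 was at 33.5 and 37.5 FPKM, a ratio of 0.895 (95% counting interval 0.846 to 0.947), and Shox2 at 21.8 and 24.2 FPKM, a ratio of 0.902 (95% counting interval 0.837 to 0.971). Of the 24 limb factor genes, 14 averaged 1 FPKM or more, with 3 higher and 11 lower in the PRP library and a median difference of -0.16. The intervals of 9 excluded equal levels on the lower side and that of Emx2 on the higher side, against 26.1% of all genes on each side. Under 1 FPKM on average, Msx2, chosen after its values were seen, was at 0.593 and 0.286 FPKM, a ratio of 2.07 (95% counting interval 1.13 to 3.98). The mesenchymal homeobox gene Prrx2, at 1.21 and 2.36 FPKM, had the lowest ratio of the 14, 0.512 (95% counting interval 0.349 to 0.742). Osr1, a zinc finger gene of limb muscle connective tissue, was at 3.43 and 5.61 FPKM, a ratio of 0.610 (95% counting interval 0.488 to 0.761), and Alx4, a gene of the anterior limb bud, at 0.791 and 1.27 FPKM, a ratio of 0.621 (95% counting interval 0.482 to 0.797). The lower values stood beside lower FAP markers, for which the median difference was -0.33, and the part of that shift in them was not tested.

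**Figure D4:**
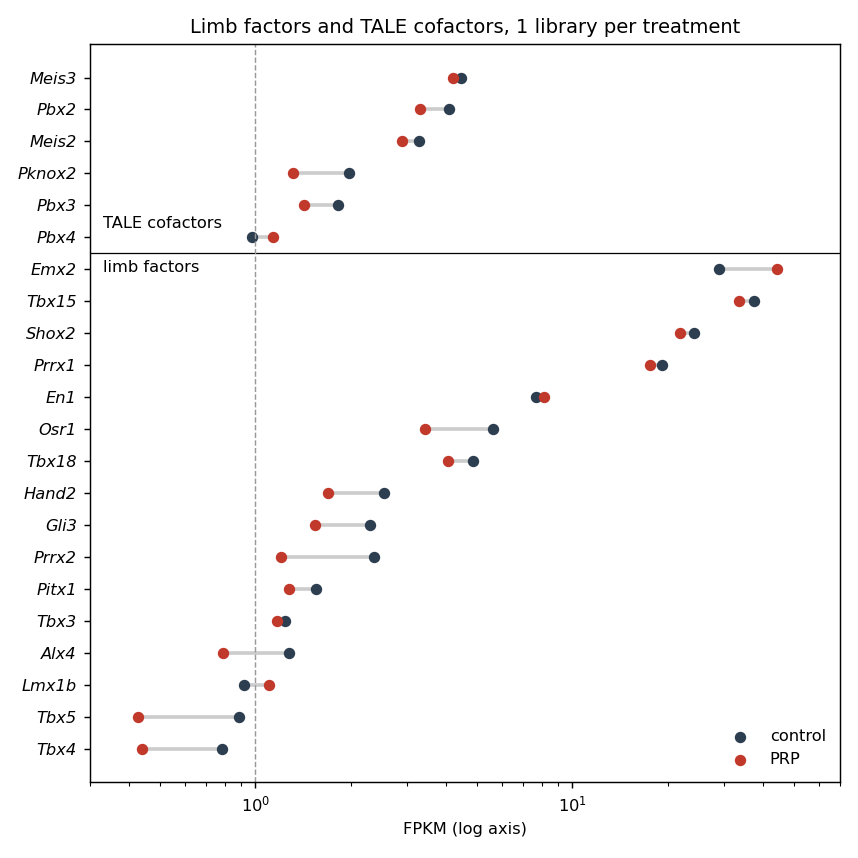
FPKM on a log axis of TALE cofactor genes (upper block) and limb factor genes (lower block) that averaged 1 FPKM or more, together with Tbx4 and Tbx5, with 1 point per library (dark, control; red, PRP) and a dashed line at 1 FPKM. Most red points lie to the left of the dark ones, and Emx2 lies to the right, with 44.1 FPKM against 29.1.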

How the data were processed

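RNA-seq was performed on 1 PRP and 1 control library of mouse FAPs. Per the labels and the study's methods, total RNA was extracted with TRIzol, libraries were made with a stranded mRNA kit, and reads were trimmed with fastp 0.23.4, aligned to mm10 with STAR 2.5.3a and counted with featureCounts. The authors deposited FPKM per gene, 1 file per library. The gene annotation, the strand setting of the counting and the step from counts to FPKM were not given in the sources used here.

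Genes were matched to GENCODE M21 for exon lengths, which 93.7% of the genes had. Multiplied by length, FPKM values were whole multiples of 1 read (tolerance 0.001) for 93.8% of the genes with a length and a value above 0. Even numbers were in excess (79.3% and 80.3% of the genes with up to 8 reads), so that 2 reads were taken as 1 fragment. Fold changes were log2(FPKM + 1), PRP minus control, for genes that averaged 1 FPKM or more. Intervals were exact Clopper-Pearson intervals of the PRP share of fragments, expressed as the ratio of FPKM, and that of the Hox sum combined the counting errors of its members. The scripts were tested on simulated reads. Python 3.11.15, pandas 2.3.3 and SciPy 1.17.1 were used. With 1 library per treatment no test was run.

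The members and the gene lists were chosen with earlier results of these data known. All 39 Hox genes enter the counts and sums, and those that averaged 1 FPKM or more are given with values. Members of the other lists are named where they averaged 1 FPKM or more and the ratio at least 1.5-fold, where they tell fore limb from hind limb (Pitx1, Tbx4, Tbx5) or where they were among the 3 highest of their list. A few genes that this rule would name are not reported here. Prrx1 stands in both the limb and the FAP list. A few markers and 2 flanking genes (Evx1 and Evx2), outside this rule, are named because they define a cell type or a cluster end, and were chosen after their values were seen. Alternatives were the pseudocount, the filter, the threshold, the scaling between libraries, genes with shared exons and the count of reads or fragments.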

Additional observations from a re-analysis of the deposited data

How the results depend on the processing

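No paired analysis was possible because there was a single library per treatment, and no library could be left out. The number of Hox genes that averaged 1 FPKM or more was 17, 21 at a minimum of 0.5 and 4 at a minimum of 5, by construction. No Hox gene reached 2-fold under any of the 9 other settings tried that kept a threshold of 2-fold or more. Of these, the pseudocount of 5, the filter at 5, 4-fold and leaving out genes with shared exons could not have added a gene. The pseudocount of 0.1, no filter and the other scalings could have. Over all genes, 739 of 13401 reached 2-fold with the pseudocount of 0.1 and 446 of 44291 with no filter, against 379 of 13401 in the main setting. At shares this low few Hox genes would be called in any case, so the count of 0 says little about them. On the log2(FPKM + 1) scale, 1 Hox gene reached 1.5-fold. With 4 genes left by the filter at 5, their median difference was -0.41 in place of -0.02. The number whose interval excluded equal levels was 4 in the main setting, where 52.2% of all genes tested excluded them. It was 6 when the libraries were scaled without mitochondrial and the 50 most abundant genes, and 9 when each read was taken as independent. The share of all genes was not taken under these other settings, so the 6 and the 9 cannot be set against 52.2%. The ratio of summed FPKM was 0.837, and 0.936 without Hoxc10. Over 106 recomputed values of the 17 genes, all 106 stayed inside the gene's own counting interval once its bounds were converted to the log2(FPKM + 1) scale. Values under other filters repeated the main value by construction, and the scalings moved values only a little. This count therefore says little about stability. Hoxa11 alone changed sign, from 0.01 to -0.01, without mitochondrial and the 50 most abundant genes. Depth limits the genes under 1 FPKM most, where the largest read number was 106. None of these settings replaces a replicate.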

Other observations

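The genes of the Polycomb and Trithorax proteins, which keep Hox genes off and on, were transcribed in both libraries. Of 20 Polycomb genes, 18 averaged 1 FPKM or more, with 8 higher and 10 lower in the PRP library, a median difference of -0.06 on the log2(FPKM + 1) scale and no 2-fold difference. The intervals of 3 excluded equal levels on the higher side and of 5 on the lower side, where 52.2% of all genes tested excluded them on either side. The highest were Eed at 25.1 FPKM with PRP and 19.8 FPKM without, a ratio of 1.27 (95% counting interval 1.18 to 1.36), Bmi1 at 16.2 and 15.5 FPKM, a ratio of 1.05 (95% counting interval 0.964 to 1.14), and Suz12 at 15.9 and 14.9 FPKM, a ratio of 1.07 (95% counting interval 0.991 to 1.15). All 11 Trithorax and H3K27 demethylase genes averaged 1 FPKM or more, with 4 higher, 7 lower and a median difference of -0.05. Dpy30 was at 29.1 FPKM with PRP and 27.3 FPKM without, Kmt2d at 14.6 and 15.6 FPKM and Rbbp5 at 12.5 and 12.95 FPKM.

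Homeobox genes of other territories were mostly near 0. None of the 7 ParaHox and related genes (Cdx, Gsx, Pdx1 and Mnx1) reached 0.1 FPKM in either library. Of the 12 genes listed as head mesenchyme factors, 3 averaged 1 FPKM or more. Of these, Pax3, which is also a gene of the trunk dermomyotome, was at 3.29 FPKM with PRP and 2.26 FPKM without, a ratio of 1.45 (95% counting interval 1.24 to 1.71). Otx2, the defining gene of the fore- and midbrain, had no reads in either library.

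Markers of further cell types were low. The 1 myogenic marker that averaged 1 FPKM or more was Des, at 2.91 and 3.39 FPKM. None of the 4 pericyte markers and none of the 4 Schwann cell markers reached 1 FPKM. The highest pericyte marker was Mcam, at 0.871 and 0.761 FPKM.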
